A study of Homo sapiens with 18 samples.

Results

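Chromatin accessibility was examined at the genes of the E protein and ID families, 6 helix-loop-helix genes made up of TCF3, TCF4 and TCF12 (the E proteins) and ID1, ID2 and ID3 (their inhibitors). A peak was counted to one of these genes when its centre lay inside the gene or, outside any protein-coding gene, when the gene was the nearest within 50 kb. The rule used no measured value and gave 57 of 71318 peaks. TCF4 held 22 of them, TCF12 held 14, TCF3 held 7, ID2 and ID3 held 5 each, and ID1 held 4. On GRCh38, TCF3 (gene ID 6929) lies at chr19:1609292-1652615 on the minus strand, TCF4 (6925) at chr18:55222185-55635957 on the minus strand and TCF12 (6938) at chr15:56918090-57291310 on the plus strand. ID1 (3397) lies at chr20:31605289-31606510 and ID2 (3398) at chr2:8682056-8684461, both on the plus strand, and ID3 (3399) at chr1:23557926-23559501 on the minus strand.

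The assay was Omni-ATAC-seq, which reads open chromatin from the places where a transposase can insert. The cells were Raji, an established line of B cells derived from Burkitt lymphoma. They were taken at a high or a low GFP level after 24, 48 and 72 h, each labelled as 3 replicates, in a series on SMARCA4 (BRG1), the motor subunit of BAF complexes that slide and eject nucleosomes. The series describes depletion of SMARCA4 through an auxin-inducible degron. No sample label names an auxin treatment, and every sample of both GFP levels carries the genotype label Smarca4+/+. What GFP reports, and which GFP level has less SMARCA4, is not given by the labels, and the groups are called GFP high and GFP low. The 3 columns of each group differed by 1.78 to 1.81 times the counting variance and were summed, which left 6 libraries, 1 per GFP level and time, of 22908652 to 29790483 counts. Nothing in the labels says that they came from separate cultures. The p-values measure only the spread that time and GFP level leave between these libraries, largely shared across peaks. That spread may be technical, and a GFP difference that changes with time adds to it. Peak heights are given as CPM, the usual depth-scaled counts, with library sizes adjusted by TMM, and every peak is 501 bp wide.

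E proteins bind DNA as dimers at short E-box sequences and are needed for B-cell development, where they switch on B-lineage genes. ID proteins carry the same dimerisation domain but no DNA-binding region, so they pair with E proteins and keep them off DNA. In Burkitt lymphoma, mutations that raise TCF3 activity or remove ID3 function recur, and TCF3 is known there to promote B-cell receptor signalling and CCND3 expression.

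Annotated start sites were set against the peaks of the table. Of 19 annotated start sites of the 6 genes, 8 lay under a peak: 4 of 10 in TCF4, 2 of 5 in TCF12, and the single ones of ID1 and ID2. The single start sites of TCF3 and ID3 did not, although a peak centred 348 bp before the TCF3 start site overlapped the 250 bases before it. The 250 bases before 4 of the start sites are shown because the peaks described next lie over 3 of them and because ID3, whose distal peaks fell, had no peak there. Sequences are from RefSeq on GRCh38.p14, read 5′ to 3′ on the strand of the gene, and capitals mark E-boxes (CANNTG, which reads the same on both strands).
ID1, chr20:31605039-31605288, plus strand: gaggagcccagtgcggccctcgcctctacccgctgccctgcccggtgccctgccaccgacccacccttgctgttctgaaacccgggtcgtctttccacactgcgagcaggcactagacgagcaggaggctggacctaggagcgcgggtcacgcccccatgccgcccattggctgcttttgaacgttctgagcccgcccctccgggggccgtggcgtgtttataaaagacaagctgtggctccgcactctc
ID2, chr2:8681806-8682055, plus strand: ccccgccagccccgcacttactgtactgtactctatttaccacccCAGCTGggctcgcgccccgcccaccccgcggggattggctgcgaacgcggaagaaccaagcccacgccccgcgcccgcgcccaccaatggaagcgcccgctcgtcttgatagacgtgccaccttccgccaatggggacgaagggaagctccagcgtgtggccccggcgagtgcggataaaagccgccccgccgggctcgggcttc
ID3, chr1:23559502-23559751, minus strand: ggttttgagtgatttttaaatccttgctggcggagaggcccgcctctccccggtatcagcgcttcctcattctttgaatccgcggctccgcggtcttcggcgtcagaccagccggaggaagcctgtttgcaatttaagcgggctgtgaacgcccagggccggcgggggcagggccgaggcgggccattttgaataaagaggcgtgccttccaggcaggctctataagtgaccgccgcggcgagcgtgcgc
TCF4 internal start site, chr18:55321842-55322091, minus strand: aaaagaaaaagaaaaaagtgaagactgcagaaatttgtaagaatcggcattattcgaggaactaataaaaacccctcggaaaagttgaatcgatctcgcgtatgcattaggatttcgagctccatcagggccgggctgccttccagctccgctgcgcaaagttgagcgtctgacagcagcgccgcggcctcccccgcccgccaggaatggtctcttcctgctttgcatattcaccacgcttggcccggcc
An E-box was found in 8 of the 19 windows of the family, against 61.8% of 35116 such windows of all genes. Among the 4 shown, ID2 held one, a CAGCTG, a form found in 14% of all windows. None of the 19 windows held CAGGTG on either strand, against 17.5% of all windows. A match is a description of these letters and not a bound site.

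The family as a whole did not move in one direction between GFP levels. Over the 3 times, 11 of the 57 peaks were lower in GFP low and 8 were higher (edgeR quasi-likelihood test, Benjamini-Hochberg adjusted over all peaks at 0.05), and 38 were not called. In bulk cells, fewer cells with a site open and less opening per cell cannot be told apart. Across all 71318 peaks, 25.4% were called lower and 13.4% higher. The share of the family called lower was 19.3% and the share called higher 14%. The median log2 change was 0.03 over the 57 peaks and 0.03 over all peaks. In 10 of the 57 peaks the 3 GFP low libraries lay below all 3 GFP high libraries, and in 13 they lay above, against 25.1% and 20.8% of all peaks. DESeq2 called 7 lower and 3 higher, against 18% and 5.22% of all peaks. Without the 72 h libraries the edgeR fit called 5 lower and 2 higher, against 18.8% and 3.51%. With scaling on abundance it called 9 lower and 7 higher, against 21.8% and 13.3%, of which 8 and 2 were among the peaks named here as lower and higher.

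**Figure D1:**
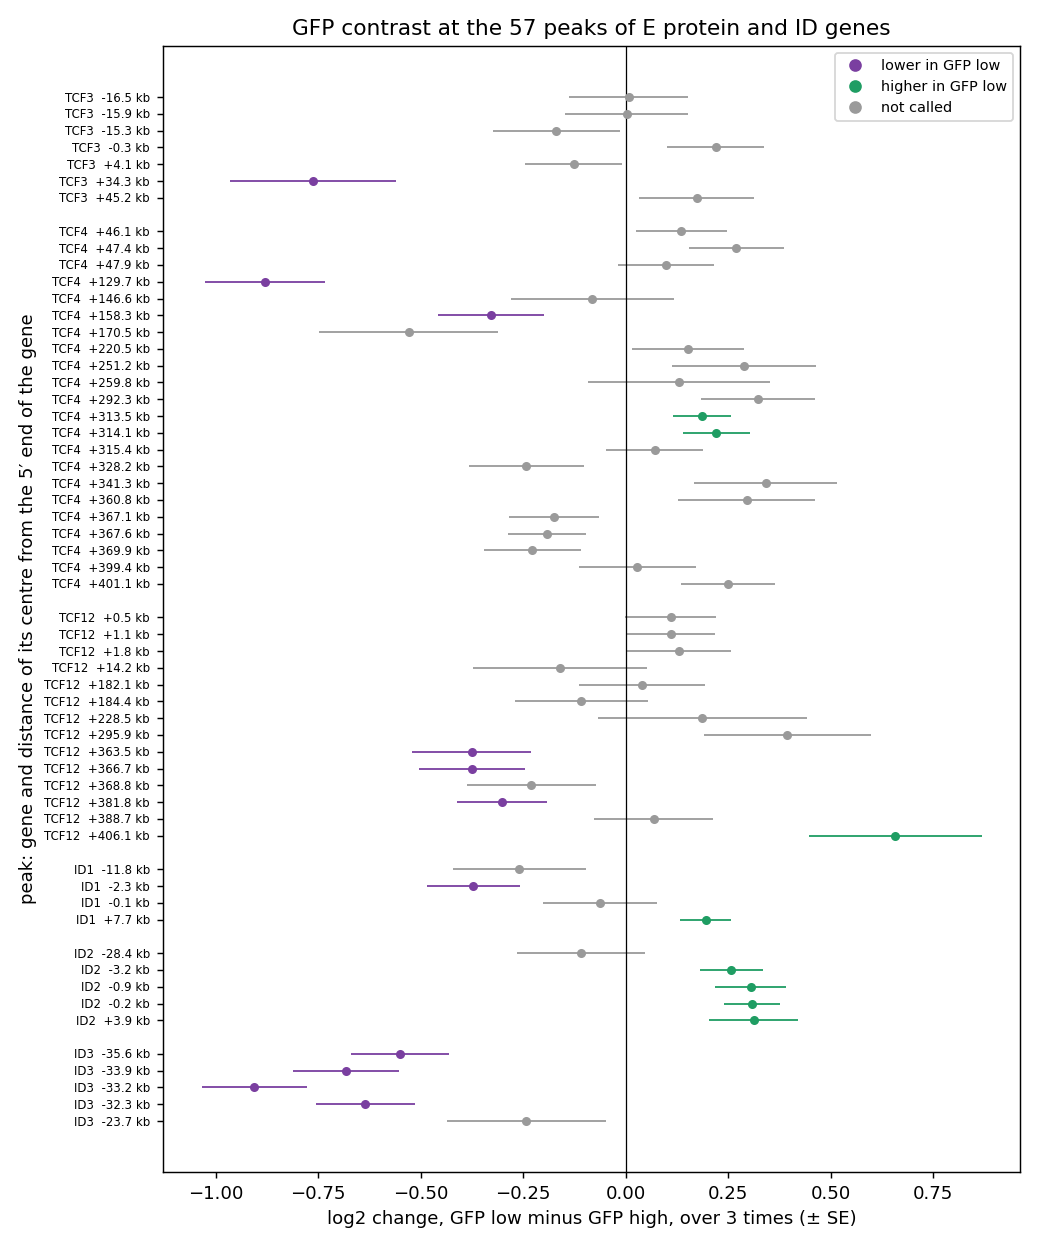
Log2 change between GFP levels (GFP low minus GFP high, over 3 times, ± SE) for each of the 57 peaks, labelled by gene and by distance of the peak centre from the 5′ end of the gene, coloured by call. The 4 called ID2 peaks all lie right of zero and the 4 called ID3 peaks all lie left of it.

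The calls were spread unevenly over the genes. The 14 peaks of the ID genes held 5 lower and 5 higher calls (35.7% each). The 43 peaks of the E protein genes held 6 lower and 3 higher (14% and 6.98%). Across all peaks 25.4% were called lower and 13.4% higher, and these shares differed with position and height, as given below for ID2 and ID3. ID2 had 4 higher calls and 0 lower. ID3 had 4 lower calls and 0 higher. The other genes were mixed or mostly uncalled: ID1 had 1 of each, TCF4 2 of each, TCF12 had 3 lower and 1 higher, and TCF3 had 1 lower. The difference between genes was not tested, and the peaks of one gene share their locus.

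ID2, which encodes an ID protein widely expressed in lymphoid and other cells, was more open in GFP low at its promoter and at peaks nearby. The promoter peak, chr2:8681647-8682147, had its centre 159 bp before the 5′ end of the gene and was the tallest of the locus. It measured 50.4, 56.1 and 55.4 CPM in GFP high at 24, 48 and 72 h and 68.4, 63.4 and 68.7 CPM in GFP low. The 3 GFP low libraries were all above the 3 GFP high libraries. The log2 change was 0.31 ± 0.07 (SE, adjusted p = 0.0011, edgeR, 3 libraries per level). This peak covers the ID2 window printed above and the start of ID2-AS1, a long non-coding RNA gene, so the counts cannot be assigned to one of these promoters.

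The next 2 ID2 peaks before the gene also rose. The peak 0.929 kb before the 5′ end measured 30.7, 34.0 and 31.1 CPM in GFP high and 41.1, 38.2 and 39.0 CPM in GFP low, without overlap, a log2 change of 0.30 ± 0.09 (adjusted p = 0.00798, edgeR). The peak 3.19 kb before it rose from 40.0 ± 1.97 to 47.8 ± 0.831 CPM (mean ± SD, n = 3 libraries), a log2 change of 0.26 ± 0.08 (adjusted p = 0.0103, edgeR). Both lie inside ID2-AS1. Beyond the gene, the peak 3.87 kb after the 5′ end rose from 18.4 ± 1.59 to 22.8 ± 0.52 CPM, a log2 change of 0.31 ± 0.11 (adjusted p = 0.0256, edgeR). The 5th peak, 28.4 kb before the gene and the weakest of the locus, was not called and its levels overlapped, at 5.46 to 7.87 CPM in GFP high and 5.34 to 6.19 CPM in GFP low.

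Rises were common among gene-end peaks as tall as the 2 of ID2. Gene-end peaks, whose centre is at most 1 kb from either end of a gene, numbered 13709, and 34.4% of them were called higher and 4.24% lower. Among the 5471 of these with a mean of at least 30 CPM, as in the 2 gene-end peaks of ID2, 67.2% were called higher and 0.402% lower. The rises 3.19 kb before and 3.87 kb after the 5′ end lie outside genes and gene ends, where 8.96% of peaks were called higher. Of such peaks with a mean of 10 to 20 CPM, 12.1% were. These 2 ID2 peaks were taller, at means of 43.9 and 20.6 CPM, against a median of 6.08 CPM outside genes and their ends. The share called higher at their height was not taken. When the scaling was made to follow peak height (loess on abundance), the log2 change of the ID2 promoter peak was 0.13 (adjusted p = 0.108, edgeR), and those of the peaks 0.929 and 3.19 kb before the gene were 0.19 (adjusted p = 0.07) and 0.11 (adjusted p = 0.21). These 3 calls were lost with that scaling, and their direction was kept. Without the 72 h libraries the peaks 0.929, 3.19 and 3.87 kb from the 5′ end kept log2 changes of 0.29, 0.27 and 0.36 but were not called, and the last was also not called without the 24 h libraries (0.23) or by DESeq2.

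ID3, the ID gene recurrently mutated in Burkitt lymphoma, was less open in GFP low at a cluster of distal peaks. The 4 peaks span 3.76 kb, chr1:23591554-23595314, and their centres lie 32.3 to 35.6 kb before the 5′ end of ID3. No other protein-coding gene was nearer: the next, E2F2, was 60.6 to 63.8 kb away. No peak of the table lay over the ID3 start site, and the nearest had its centre 23.7 kb from it, so that the promoter of ID3 could not be compared here. Which gene the cluster acts on is not measured by these data.

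The strongest fall of the cluster was at chr1:23592428-23592928. It measured 13.1, 16.1 and 14.3 CPM in GFP high at 24, 48 and 72 h and 6.66, 7.25 and 9.37 CPM in GFP low. All 3 GFP low libraries were below all 3 GFP high libraries. The log2 change was -0.91 ± 0.13 (SE, adjusted p = 8.95e-06, edgeR), which placed the peak at 5.86% of all peaks counted from the largest fall.

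The 3 neighbours fell by less. The peak starting at 23593174 measured 13.5, 15.4 and 16.1 CPM in GFP high and 8.12, 7.64 and 12.8 CPM in GFP low, a log2 change of -0.68 ± 0.13 (adjusted p = 0.000251, edgeR). That starting at 23591554 measured 11.8, 12.7 and 15.7 CPM in GFP high and 7.13, 7.86 and 11.1 CPM in GFP low, a log2 change of -0.63 ± 0.12 (adjusted p = 0.000235, edgeR). That starting at 23594814 measured 17.7, 17.6 and 18.7 CPM in GFP high and 10.3, 11.5 and 15.4 CPM in GFP low, a log2 change of -0.55 ± 0.12 (adjusted p = 0.000868, edgeR). In each of the 3, the GFP low libraries lay below the GFP high libraries without overlap. The 5th ID3 peak, 23.7 kb before the gene, was low at 3.02 to 4.42 CPM in GFP high and 2.31 to 3.87 CPM in GFP low, and was not called (log2 change -0.24 ± 0.19, adjusted p = 0.324, edgeR).

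Falls of this kind were also common away from genes: of 4788 peaks outside genes and their ends with a mean of 10 to 20 CPM, 34.2% were called lower and 12.1% higher. The 4 calls at ID3 were kept under all 30 alternative settings tried for each, the scaling on abundance included. Of these settings, 18 only left out a column of a summed library, which tests a strong call weakly.

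**Figure D2:**
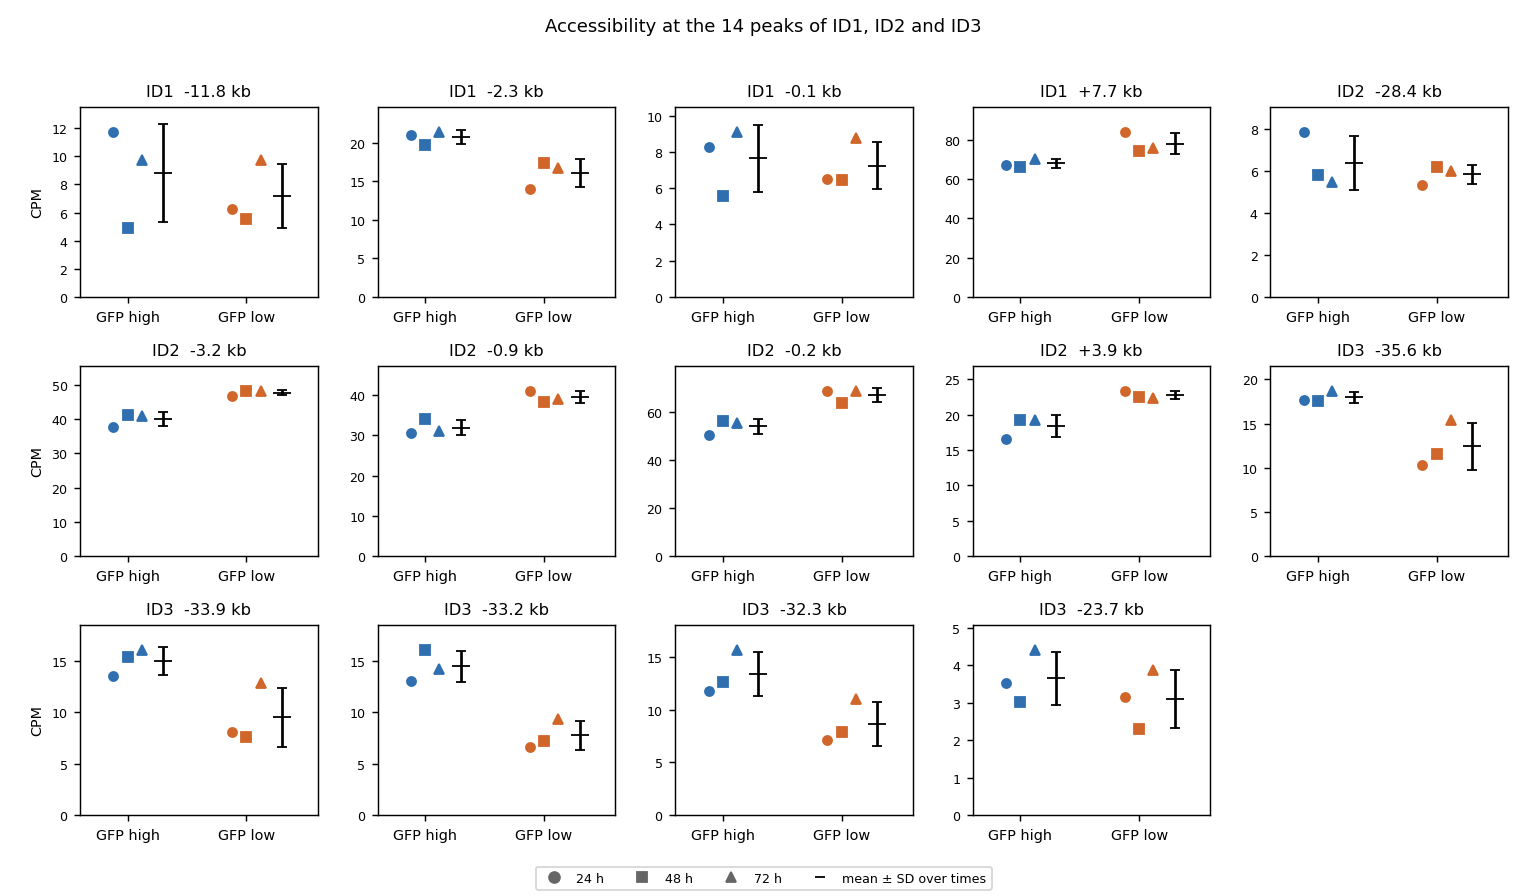
CPM (vertical axis, from 0) of each peak of ID1, ID2 and ID3 in GFP high and GFP low, 1 point per library with the time as its symbol, and the mean ± SD over the 3 times. The ID2 promoter peak lies at 50.4 to 56.1 CPM in GFP high and 63.4 to 68.7 CPM in GFP low, and the ID3 peak starting at 23592428 at 13.1 to 16.1 and 6.66 to 9.37 CPM.

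ID1, a growth-induced member of the ID genes, had 1 peak lower and 1 higher in GFP low, and neither was its promoter. The promoter peak, centred 122 bp before the 5′ end and over the ID1 window printed above, was weak at 8.26, 5.56 and 9.12 CPM in GFP high and 6.51, 6.47 and 8.76 CPM in GFP low. Its levels overlapped, and the log2 change was -0.06 ± 0.14 (adjusted p = 0.739, edgeR). The peak 2.32 kb before the gene measured 21.0, 19.7 and 21.4 CPM in GFP high and 14, 17.3 and 16.8 CPM in GFP low, without overlap, a log2 change of -0.37 ± 0.11 (adjusted p = 0.0118, edgeR). It was not called without the 24 h libraries (-0.26) or the 72 h libraries (-0.38).

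The tallest peak of all 57 lay 7.69 kb after the 5′ end of ID1, outside the gene. It measured 67.4, 66.4 and 70.5 CPM in GFP high and 84.2, 74.3 and 75.8 CPM in GFP low, a log2 change of 0.20 ± 0.06 (adjusted p = 0.0155, edgeR). This rise rests on the scaling: with scaling on abundance the log2 change was -0.0031 (adjusted p = 0.971, edgeR), and the rise was not called by DESeq2 or without the 72 h libraries (0.24). The peak 11.8 kb before the gene measured 11.7, 4.91 and 9.76 CPM in GFP high and 6.25, 5.51 and 9.75 CPM in GFP low and was not called. Its GFP high level at 48 h was the lowest of its 6 values, and the levels overlapped. Without the 48 h libraries its log2 change was -0.44 and was called (adjusted p = 0.0282, edgeR).

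At single times there was 1 library per GFP level and no test, and a log2 difference is given with a 95% counting interval that covers counting error only. The ID3 cluster was lower in GFP low at each time. Its differences were -0.72 to -0.97 at 24 h, -0.61 to -1.15 at 48 h and -0.28 to -0.60 at 72 h over the 4 peaks, and each interval lay below zero. The difference was smaller at 72 h than at 24 h by more than the counting interval only at the peak starting at 23594814, by 0.49 (0.11 to 0.88). In the ID2 promoter peak the difference was 0.44 (0.30 to 0.58) at 24 h, 0.18 (0.05 to 0.31) at 48 h and 0.31 (0.18 to 0.44) at 72 h.

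Differences of at least 2-fold were few in the family. At 24 h, 2 of 57 peaks were at least 2-fold lower in GFP low (TCF3 starting at 1618092 and TCF4 starting at 55505992), against 8.44% of all peaks. At 48 h there were 2, both in the ID3 cluster (starting at 23592428 and 23593174), against 3.99% of all peaks. At 72 h there were 0, against 4.03%. In the other direction 1 peak reached 2-fold, at TCF12 at 48 h, against 0.259% of all peaks, and 0 did at 24 or 72 h, against 0.24% and 0.108%.

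**Figure D3:**
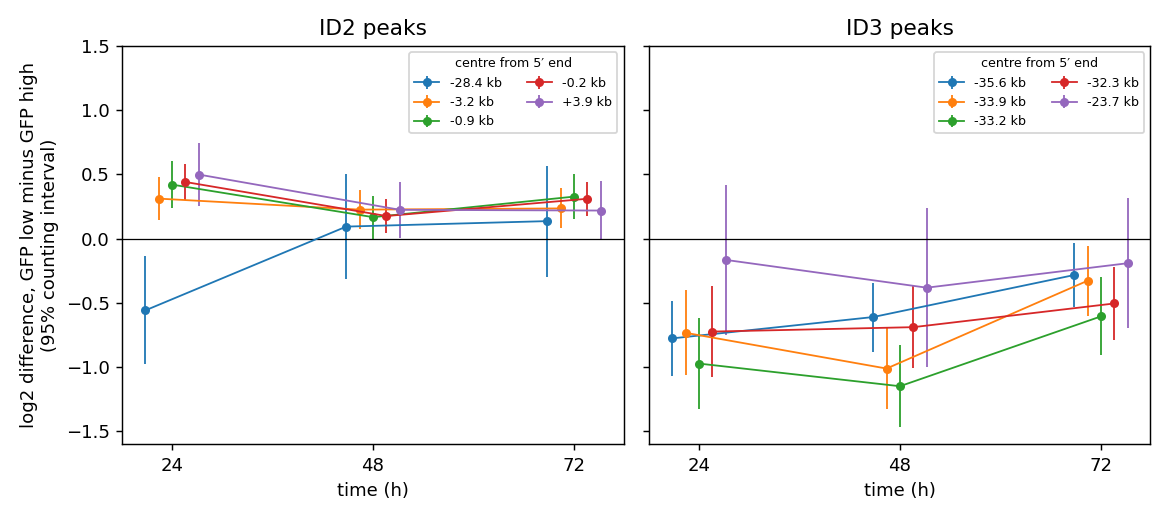
Log2 difference in CPM between GFP low and GFP high at 24, 48 and 72 h for the peaks of ID2 and ID3, with 95% counting intervals (1 library per level and time, no test). The 4 peaks of the ID3 cluster stay below zero at each time, from -0.28 to -1.15.

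TCF4, which encodes the E protein E2-2 and spans 414 kb of chromosome 18 with 10 annotated start sites, was more open in GFP low at an internal promoter and less open at 2 peaks in the gene body. The peak over the internal start site, chr18:55321653-55322153, whose sequence is printed above, measured 36.4, 38.3 and 34.1 CPM in GFP high and 43.0, 41.6 and 42.1 CPM in GFP low. All GFP low libraries were above the GFP high libraries, and the log2 change was 0.22 ± 0.08 (adjusted p = 0.0355, edgeR). Its neighbour starting at 55322229, the tallest TCF4 peak, rose from 46.8 ± 2.66 to 53.2 ± 2.05 CPM (mean ± SD, n = 3 libraries), a log2 change of 0.19 ± 0.07 (adjusted p = 0.0418, edgeR). With scaling on abundance these changes were 0.09 and 0.03, and neither was called. DESeq2 called neither, and neither was called without the 72 h libraries (0.18 and 0.20). The 2 calls were lost under 7 and 13 of 30 alternatives, scaling on total counts alone among them. Rises were common at tall gene-end peaks, 67.2% of those with a mean of at least 30 CPM. Their share at start sites inside genes was not taken.

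The clearest fall in an E protein gene was in the body of TCF4, 130 kb from the 5′ end, at chr18:55505992-55506492. It measured 9.24, 8 and 7.31 CPM in GFP high and 4.32, 4.91 and 4.07 CPM in GFP low. The groups did not overlap, and the log2 change was -0.88 ± 0.15 (adjusted p = 5.82e-05, edgeR). That call was kept under all 30 alternatives, most of them fits with a column left out. The peak 158 kb from the 5′ end, which also lies in the antisense RNA gene TCF4-AS1, fell from 9.63 ± 0.481 to 7.69 ± 0.823 CPM, a log2 change of -0.33 ± 0.13 (adjusted p = 0.0466, edgeR). That call was lost under 16 of 30 alternatives, among them leaving out the 48 h libraries (-0.39) or the 72 h libraries (-0.23). The 18 other TCF4 peaks were not called, those at the start sites 46 to 48 kb from the 5′ end among them, with log2 changes of 0.10 to 0.27.

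TCF12, which encodes the E protein HEB and spans 373 kb, was not called at its 5′ promoter, where the gene-end peak measured 14.9, 14 and 16.5 CPM in GFP high and 15.6, 15.4 and 18 CPM in GFP low. The levels overlapped (log2 change 0.11 ± 0.11, adjusted p = 0.442, edgeR). Near the 3′ end, the peaks 363 and 367 kb from the 5′ end fell by 0.37 ± 0.15 and 0.37 ± 0.13 on the log2 scale (adjusted p = 0.0434 and 0.0256, edgeR). The tallest TCF12 peak lay 8.62 kb beyond the gene and 190 bp before the long non-coding RNA gene LINC00926, at chr15:57299675-57300175. It measured 19.8, 21.3 and 20.2 CPM in GFP high and 17.4, 16.2 and 16.1 CPM in GFP low, without overlap, a log2 change of -0.30 ± 0.11 (adjusted p = 0.0314, edgeR). None of these 3 falls was called by DESeq2 or without the 72 h libraries, where they were -0.25, -0.28 and -0.29. With scaling on abundance the first 2 were -0.28 and -0.30 and not called (adjusted p = 0.126 and 0.0762, edgeR). The call 363 kb from the 5′ end was lost under 13 of 30 alternatives, and the other two each under 6.

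Farther out, 32.9 kb beyond TCF12 and inside the long non-coding RNA gene LINC01413, a weak peak was higher in GFP low. It measured 2.58, 1.97 and 3.45 CPM in GFP high and 3.40, 4.69 and 4.35 CPM in GFP low. The highest GFP high library lay just above the lowest GFP low library, and the log2 change was 0.66 ± 0.21 (adjusted p = 0.0167, edgeR). Without the 48 h libraries it was 0.36 and not called, and DESeq2 did not call it.

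TCF3, the E protein gene (E2A) mutated in Burkitt lymphoma, changed at 1 weak peak of its 7. That peak, 34.3 kb from the 5′ end at chr19:1618092-1618592, measured 4.64, 3.32 and 5.10 CPM in GFP high and 2.19, 2.67 and 2.75 CPM in GFP low. The groups did not overlap, and the log2 change was -0.76 ± 0.20 (adjusted p = 0.00494, edgeR). Without the 72 h libraries it was -0.69 and not called (adjusted p = 0.0565). At the promoter, the peak centred 348 bp before the 5′ end measured 15.7, 20.8 and 19.5 CPM in GFP high and 23.4, 19.8 and 22.0 CPM in GFP low. These levels overlapped, and the log2 change of 0.22 ± 0.12 did not pass (adjusted p = 0.143, edgeR). Without the 48 h libraries it was 0.37 and passed (adjusted p = 0.0245, edgeR).

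**Figure D4:**
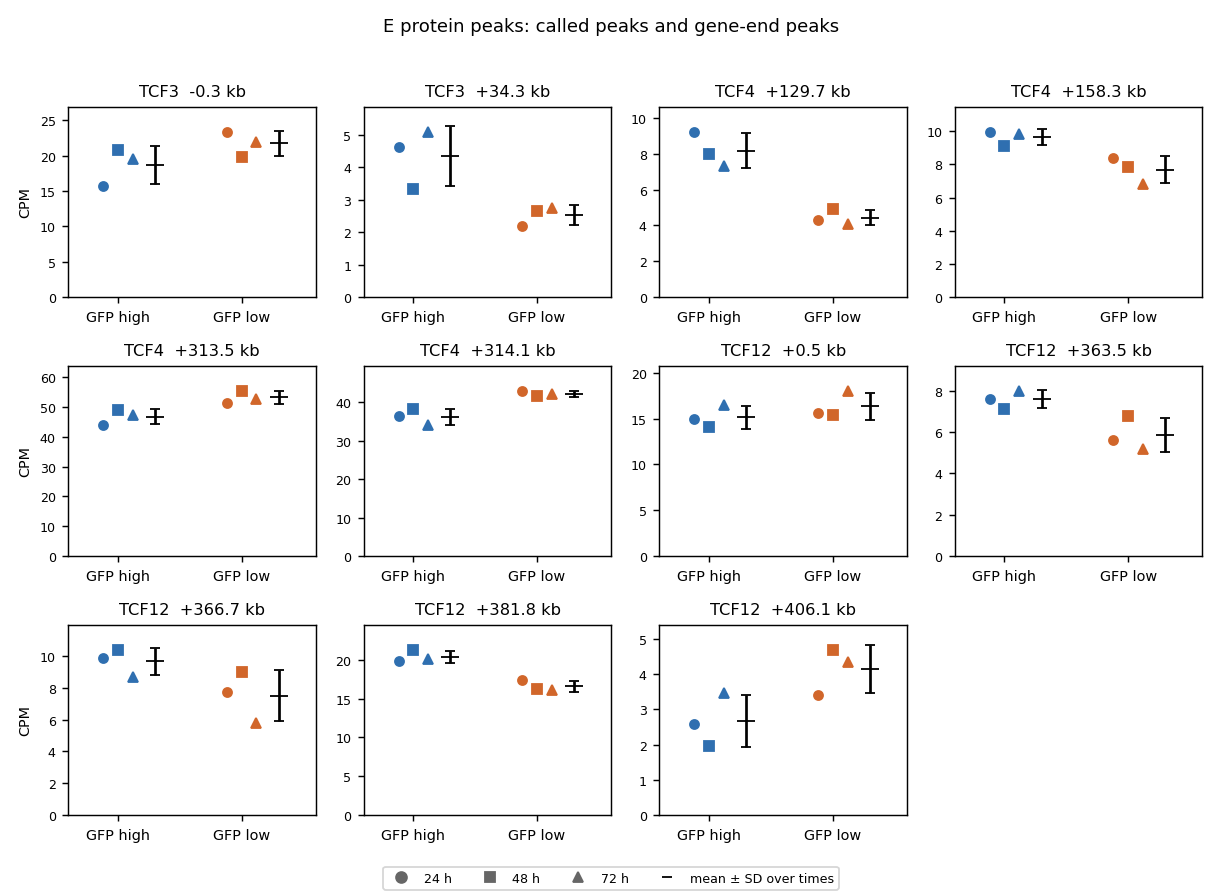
CPM (vertical axis, from 0) of the named peaks of TCF3, TCF4 and TCF12 in GFP high and GFP low, 1 point per library with the time as its symbol, and the mean ± SD over the 3 times. The TCF4 peak 130 kb from the 5′ end lies at 7.31 to 9.24 CPM in GFP high and 4.07 to 4.91 CPM in GFP low.

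**Figure D5:**
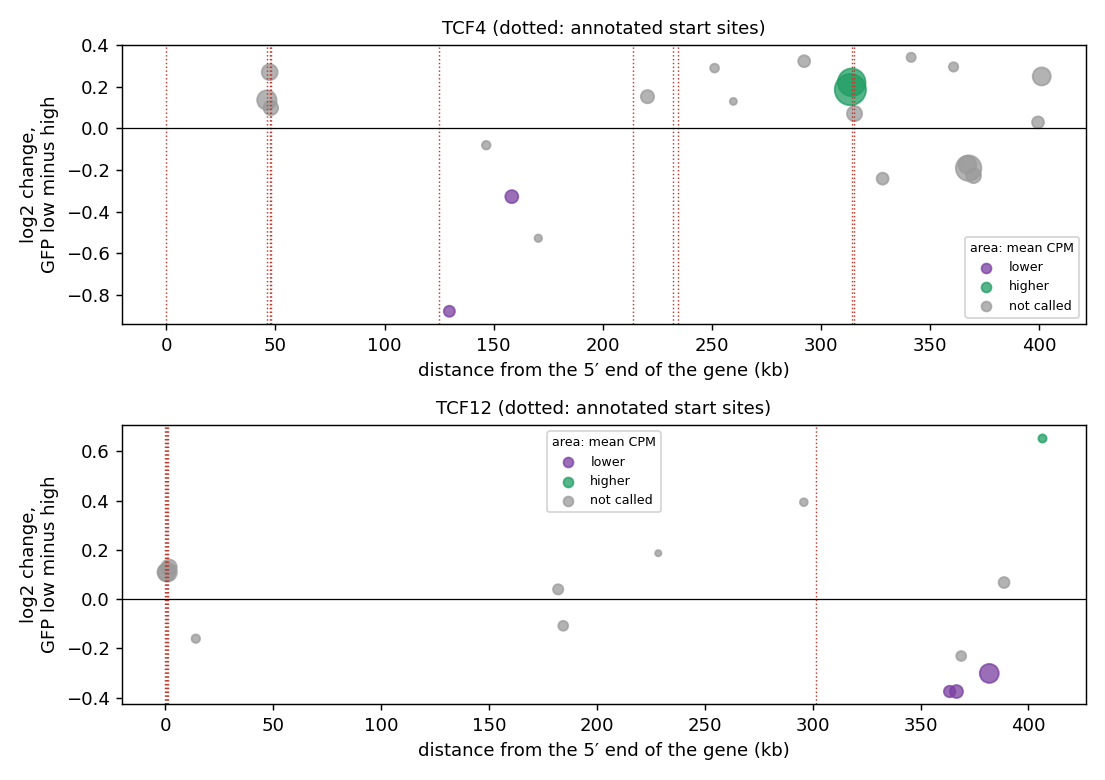
Log2 change between GFP levels along TCF4 and TCF12 against distance from the 5′ end of the gene in kb, with point area set by mean CPM and dotted lines at annotated start sites. In TCF4 the called rises lie at 313 and 314 kb and the called falls at 130 and 158 kb.

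Peaks at or near start sites differed in height between 5 of the genes, with none to measure at ID3. Over all 6 libraries the mean was 60.4 CPM at the ID2 promoter peak, 39.2 CPM at the tallest TCF4 start-site peak, 20.2 CPM at the TCF3 promoter peak, 15.8 CPM at the TCF12 gene-end peak and 7.45 CPM at the ID1 promoter peak. The ranges over libraries of TCF3 (15.7 to 23.4 CPM) and TCF12 (14 to 18 CPM) overlapped, and the other neighbours among these 5 peaks did not. That separation depends on the peak chosen. The TCF4 peak starting at 55322229 lies 638 bp from a start site. At 43.9 to 55.5 CPM it overlapped the ID2 promoter peak (50.4 to 68.7 CPM). The ID2 peak 0.929 kb before the gene, at 30.7 to 41.1 CPM, overlapped the TCF4 peak compared (34.1 to 43.0 CPM). Another TCF12 start-site peak had a mean of 18.3 CPM. The 3 other TCF4 peaks that cover start sites were lower than the TCF4 peak compared. They lay at 10.2 to 20.7 CPM over libraries and peaks and overlapped those of TCF3 and TCF12. By position, 0 of the 5 gene-end peaks of the family were lower and 2 higher, against 4.24% and 34.4% of all gene-end peaks. In gene bodies 5 of 34 were lower and 2 higher (14.7% and 5.88%, against 30.3% and 7.98% of all such peaks). Outside genes 6 of 18 were lower and 4 higher (33.3% and 22.2%, against 30.6% and 8.96%).

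Summed over the peaks of each of the 6 genes, and as a description, ID2 and ID3 differed between GFP levels without overlap of libraries and the 4 others overlapped. ID2 went from 150.6 ± 6.78 CPM in GFP high to 182.7 ± 3.56 CPM in GFP low (mean ± SD, n = 3 libraries). ID3 went from 64.5 ± 4.84 to 41.5 ± 9.58 CPM, and its log2 difference was -0.75, -0.82 and -0.40 at 24, 48 and 72 h. TCF3 was at 62.1 ± 3.85 and 62.9 ± 6.07 CPM, TCF4 at 284.8 ± 8.78 and 295.2 ± 14.2 CPM, TCF12 at 115.3 ± 3.11 and 112.7 ± 2.39 CPM, and ID1 at 105.3 ± 7.62 and 108.5 ± 4.24 CPM. Among the 7911 genes with at least 3 peaks, those whose summed profile over the 6 libraries was most like that of ID2 were ESCO1, SEMA3G and NFRKB (root mean square difference 0.0113, 0.0115 and 0.0154 in log2 CPM, with each profile centred on its mean). Among the same genes, the nearest to ID3 was GGTLC2 at 0.0733. For TCF3 this was TMCC2 (0.0134), for TCF4 FBXO41 (0.0198), for TCF12 FUT8 (0.00985) and for ID1 PPHLN1 (0.025).

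Between 72 and 24 h, over both GFP levels, 0 of the 57 peaks were called in either direction (edgeR quasi-likelihood test), against 1.87% of all peaks called lower and 0.882% called higher. At an unadjusted p under 0.05 there were 3 higher at 72 h, all in ID3, and 3 lower, 2 in TCF4 and 1 in TCF12, against 6.78% and 9.18% of all peaks. The smallest adjusted p was 0.0551, at the ID3 peak starting at 23591554, with a log2 change of 0.52. DESeq2 also called 0 in either direction, and the 18 columns taken as separate libraries gave 3 higher and 3 lower. The shares of all peaks called between times in these fits were not taken, so these counts have no comparison.

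Genes around the family were read from 3 lists. Of 112 peaks of E protein partners and cofactors (22 of 22 genes with a peak), 32 were lower in GFP low and 13 higher (28.6% and 11.6%, against the 25.4% and 13.4% of all peaks). Each example is 1 peak, the one of its gene with the smallest p in that direction, and not the gene as a whole. Examples come from the 3 genes with the smallest p per list and direction, and not all of these genes are named. Falls include a peak of SSBP3, a component of LMO and LDB complexes (-1.02 ± 0.15, adjusted p = 1.09e-05, edgeR), and one of TAL2, a helix-loop-helix partner (-0.88 ± 0.13, adjusted p = 2.33e-05). A gene-end peak of USP1, a deubiquitinase that stabilises ID proteins, rose (0.30 ± 0.06, adjusted p = 0.000227, edgeR).

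RAG2, IGLL1 and IL7R had no peak among the targets. Of 162 peaks of known E protein targets in B cells (19 of 22 genes with a peak), 38 were lower and 12 higher (23.5% and 7.41%). A peak inside PAX5, which maintains B-cell identity, fell by 1.10 ± 0.12 on the log2 scale, and one inside CCND3, a cyclin, by 0.91 ± 0.12 (adjusted p = 3.38e-07 and 4.93e-06, edgeR). BCL6, the repressor of the germinal centre programme, had peaks of both kinds: one 32.0 kb outside the gene fell by 0.96 ± 0.12 and one 1.30 kb outside it rose by 0.69 ± 0.12 (adjusted p = 1.32e-06 and 6.00e-05, edgeR).

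Of 115 peaks of BMP, TGF-beta and EGR inducers of ID genes (18 of 18 genes), 37 were lower and 15 higher (32.2% and 13%). Of the 18 genes, 6 had only lower calls, 3 only higher, 7 both and 2 neither. A peak inside BMPR1B, a BMP receptor, fell by 1.55 ± 0.12 on the log2 scale, and one inside SMAD1, which carries the BMP signal to ID promoters, by 1.46 ± 0.21 (adjusted p = 2.09e-08 and 1.02e-05, edgeR). A peak inside SMAD4, the shared partner of SMAD proteins, rose by 0.53 ± 0.12 (adjusted p = 0.00137, edgeR). The median log2 change was -0.12 over these peaks, -0.07 over those of the B-cell targets and -0.01 over those of the partners, against 0.03 over all peaks.

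The B-cell label was checked against markers. Levels were summed over 42 B-cell, 19 T-cell, 11 myeloid and 12 epithelial and stromal peaks, so the sums do not compare one cell type with another. B-cell marker genes had a peak in 9 of 10 cases (not BLK), 8 of them at a gene end, and their summed level was 695.7 to 720.1 CPM in GFP high and 690.1 to 736.5 CPM in GFP low. T-cell genes had a peak in 6 of 8 cases (not CD3G or THEMIS), 4 at a gene end (CD28, CD3D, CD3E and CD8A), at 266.9 to 274.3 CPM in GFP high and 199.5 to 215.6 CPM in GFP low, so they were lower in GFP low beside the falls at ID3. Of the 19 T-cell peaks, 9 were called lower and 0 higher (47.4% and 0%, against 25.4% and 13.4% of all peaks). The part of these genes in the falls at ID3 was not tested. Myeloid genes had a peak in 7 of 8 cases, at 81.9 to 89.2 CPM in GFP high and 74.5 to 80.4 CPM in GFP low. Their sum was thus also lower in GFP low without overlap. Of the 11 myeloid peaks, 3 were called lower and 1 higher (27.3% and 9.09%). The 42 B-cell peaks held 9 lower and 3 higher calls (21.4% and 7.14%). Erythroid genes had a peak in 1 of 5 cases. Epithelial and stromal genes had one in 5 of 6, at 67.9 to 77.2 and 68.1 to 77.9 CPM, with 1 of 12 peaks lower and 1 higher.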

How the data were processed

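Whole-number counts per peak, not normalised, were deposited by the authors for 18 columns and 1 shared set of 501 bp peaks. The genome build was hg38 and the tools R 4.2.1, deepTools, BWA and FastQC, per the submitters' processing notes. What each tool did, how peaks were called, and how duplicates and the transposase offset were handled is not given in the sources used here. Duplicates kept or both fragment ends counted would raise the noise of each count. Columns held 7106939 to 11171849 counts. D1, D2 and D3 in the headers were read as 24, 48 and 72 h, while the V numbers could not be tied to the labels' replicate numbers.

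Squared differences between columns of 1 group were 1.78 to 1.81 times the counting variance (18 pairs), against 2.21 to 3.47 between times and 4.46 to 7.22 between GFP levels, so the 3 columns of a group were summed and counted as 1 sample. Deviations from the group mean correlated at -0.00522 to 0.0176 between columns of other groups with the same V number. With other V numbers they correlated at -0.0145 to 0.0105, so any pairing by V number was very weak. edgeR 4.0.16 in R 4.3.3 fitted time plus GFP level over all peaks (TMM, robust quasi-likelihood, 2 residual degrees of freedom, a median of 22.6 prior degrees of freedom, filterByExpr removed 0 peaks). The same fit gave 72 against 24 h. At single times, intervals used 1.798 times the counting variance. The scripts were tested on simulated data.

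Genes were 19947 protein-coding RefSeq genes on GRCh38 (105 readthrough genes left out), and 59535 peaks took a gene. A gene end is within 1 kb of either end. The table does not separate exons, introns and UTRs. Named peaks are all those of the ID genes, gene-end peaks, the tallest peak and up to 4 called peaks per direction by smallest p of each E protein gene, and up to 3 genes per list and direction. The start-site peaks of TCF4 without a call were added after their values were seen, as were the limits of 30 CPM and of 10 to 20 CPM used for comparison. Genes, lists and tests were chosen with earlier results of these data known. Other scalings, a count minimum, DESeq2 1.42.0, V number blocks, narrower gene assignment and fits with 1 column or time left out were tried as alternatives. Narrower gene assignment was applied to the counts of called peaks only. It is not among the 30 alternatives given for named peaks.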

Additional observations from a re-analysis of the deposited data

Results flagged for a closer look

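A weak peak in TCF12, 14.2 kb from the 5′ end of the gene and starting at 56932069, moved in opposite directions at 24 and 48 h. The log2 difference between GFP low and GFP high was 0.63 at 24 h (95% counting interval 0.01 to 1.25) and -0.55 at 48 h (-1.03 to -0.06). The difference between the times was not tested, since each rests on 1 library per GFP level. The peak was not called over the times. Only the 57 peaks were searched for such opposite differences, and the share of all peaks with them was not taken.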

How the results depend on the processing

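The ID3 cluster and the TCF4 peak 130 kb from the 5′ end kept their calls under all 30 alternatives. Of the 30, 18 only left out a column of a summed library, and the count minimum kept 71317 of 71318 peaks. Those settings change the data little and test a strong call weakly. The calls were also kept with scaling on abundance, with DESeq2 and with each time left out. Among called peaks named here, the 1 that changed sign was the ID1 peak 7.69 kb after the 5′ end, at -0.0031 with scaling on abundance. Of the uncalled ones, the ID1 peaks 11.8 and 0.122 kb before the gene (-0.44 to 0.08 and -0.19 to 0.08) and the ID2 peak 28.4 kb before it (-0.23 to 0.13) also crossed zero. For the 57 peaks, DESeq2 called 7 lower and 3 higher (18% and 5.22% of all peaks), and leaving out the 72 h libraries left 5 and 2 (18.8% and 3.51%). Counting the 35 peaks inside the genes alone left 5 and 2, and a limit of 10 kb left 7 lower and 7 higher of 45 peaks. The 4 peaks of the ID3 cluster, 32.3 to 35.6 kb before the gene, are left out of the family by both rules. The 18 columns as separate libraries gave 13 higher, as did reading V numbers as time, against 27.0% and 25.9% of all peaks. With the V number as a replicate block within time, 13 were lower and 13 higher, against 28.7% and 25.5% of all peaks. The called higher peaks of the lists then numbered 25 of 112 (partners), 32 of 162 (targets) and 34 of 115 (inducers). Any pairing of the columns by V number was very weak. DESeq2 gave 6 higher for partners, 24 lower for targets, and 24 lower and 9 higher for inducers, beside its 18% lower and 5.22% higher of all peaks. Between 72 and 24 h, the 18 columns gave 3 higher and 3 lower with and without the block. At least 2-fold lower peaks were 0 at 24 h and 1 at 48 h with scaling on abundance, and with V numbers as time 1 lower and 0 higher at 48 h. Leaving out 1 column at a time gave 8 to 11 lower and 7 to 10 higher, 0 to 1 higher and 0 lower for 72 h, and 0 to 4, 1 to 2 and 0 to 1 peaks at least 2-fold lower at 24, 48 and 72 h. Under these alternatives, shares of all peaks were not taken for 72 against 24 h, for 2-fold differences or for fits with 1 column left out. Those counts therefore have no comparison. The cause of these shifts was not tested. Since each group is 1 library, p-values rest largely on spread shared across peaks.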
